A study of Homo sapiens with 6 samples.

Results

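The genes described here are 10 members of the Notch pathway measured in MDA-MB-231 cells, a mesenchymal, triple-negative line established from human breast cancer. They comprise the receptors NOTCH1, NOTCH2 and NOTCH3, the ligands JAG1 and JAG2, the nuclear factors RBPJ and MAML2, the target repressors HES1 and HEY1, and DTX4, a ubiquitin ligase of the Deltex family. They were chosen by symbol among the 61155 gene symbols of the deposited count table, and all 10 passed the filter on low counts, which left 16633 symbols. RNA was sequenced from 3 control libraries and 3 libraries in which VASP, a promoter of actin filament elongation, was knocked down, all harvested 48 hours after transfection. The titles call the groups plko and shVASP, as for hairpin vectors, while other labels speak of siRNA: negative control siRNA in one group and VASP siRNA in the other. The grouping is the same by either label, but the reagent cannot be told. Separate cultures are not stated for any group, and the control columns carry names that could also stand for repeats of 1 culture. The p-values therefore measure library-to-library spread, which may be technical only.

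Library totals ran from 28856610 to 30055503 counts. VASP, the targeted gene, fell from 164 ± 9.04 to 12.7 ± 0.355 CPM (counts scaled to library size by TMM; SD, n = 3 each) with no overlap between groups. Of 6 markers listed for the line, 5 stood above 10 CPM (VIM, CD44, EGFR, AXL and CAV1), while SPARC stood at 0.436 CPM in control. None of the listed markers of luminal epithelium, leukocytes, endothelium, or fibroblasts and smooth muscle reached 10 CPM. The summed level of the leukocyte list ran from 2.32 to 3.10 CPM in control and from 1.53 to 2.94 CPM in knockdown. For the luminal list these sums were 10.8 to 12.2 and 10.4 to 10.9 CPM, and for endothelium 6.84 to 7.37 and 6.16 to 6.3 CPM. For fibroblasts and smooth muscle they were 0.588 to 1.17 and 0.681 to 1.15 CPM.

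Notch receptors are membrane proteins that are cut when a ligand of the Jagged or Delta-like type on a neighbouring cell binds them. The freed intracellular part enters the nucleus, joins the DNA-binding protein RBPJ and a Mastermind-like coactivator such as MAML2, and turns on target genes, of which the HES and HEY repressors are the best known. In breast cancer the pathway has been tied to stem-like behaviour, invasion and bone metastasis, and JAG1 is among the ligands studied most.

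RBPJ binds DNA at a core written TGGGAA, and HES repressors bind N boxes, written CACNAG, among them sites in the HES1 promoter itself. Promoter windows of 300 bases, from 250 before to 50 after an annotated start (RefSeq, GRCh38.p14), were at hand for 9 of the 10 genes and were searched on both strands. The following windows are shown because HES1 and RBPJ were the genes among the 9 with a core match, and because NOTCH3, which had none, changed most. Capitals mark TGGGAA or its reverse complement, and each window reads 5′ to 3′ on the strand of its gene.
HES1, chr3:194135898-194136197, plus strand: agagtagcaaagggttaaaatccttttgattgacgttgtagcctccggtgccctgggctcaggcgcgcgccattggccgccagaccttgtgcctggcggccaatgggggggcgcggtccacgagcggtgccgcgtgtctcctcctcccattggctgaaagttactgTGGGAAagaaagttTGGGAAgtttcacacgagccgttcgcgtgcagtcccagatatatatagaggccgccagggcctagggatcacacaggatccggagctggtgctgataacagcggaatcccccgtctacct
RBPJ, chr4:26319496-26319795, plus strand: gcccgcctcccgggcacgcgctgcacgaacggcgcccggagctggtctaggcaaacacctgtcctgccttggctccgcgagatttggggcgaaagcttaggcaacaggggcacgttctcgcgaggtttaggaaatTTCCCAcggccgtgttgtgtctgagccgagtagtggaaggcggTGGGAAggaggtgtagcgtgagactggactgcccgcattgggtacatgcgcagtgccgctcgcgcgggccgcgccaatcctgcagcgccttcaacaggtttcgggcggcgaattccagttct
NOTCH3, chr19:15200946-15201245, minus strand: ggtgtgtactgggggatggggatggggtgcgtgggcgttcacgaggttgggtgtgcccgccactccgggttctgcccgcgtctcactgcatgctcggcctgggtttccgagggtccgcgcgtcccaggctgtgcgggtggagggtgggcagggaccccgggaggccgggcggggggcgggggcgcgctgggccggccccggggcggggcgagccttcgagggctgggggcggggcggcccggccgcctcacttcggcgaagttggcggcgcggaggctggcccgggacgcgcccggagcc

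The HES1 window held 2 core matches on the same strand, 84 and 70 bases before the start, and 4 N boxes. The first of these cores extends to GTGGGAA. RBPJ has 5 annotated windows, and the 1 shown held 2 cores on opposite strands, at 115 and 72 bases before the start, both extending to GTGGGAA, while the other 4 held none. Of 35093 annotated windows, 24% held TGGGAA and 3.79% held it more than once. GTGGGAA, the longer word overlapping the shorter, was held by 6.25% at least once and by 0.248% more than once. At least 1 N box was found in 38% of windows, and 2 or more in 8.94%. Windows of NOTCH1, NOTCH2, NOTCH3, DTX4, MAML2 and RBPJ also held N boxes. A match is a run of letters, not a measured binding site, and the gene-level counts do not show which start was used.

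After VASP knockdown the 10 genes did not move as a block. NOTCH3 fell 2.06-fold, HEY1 1.57-fold, DTX4 1.48-fold and NOTCH1 1.11-fold, and the ligands, RBPJ, MAML2, NOTCH2 and HES1 did not pass the test. In counts, 4 of 10 fell and none rose by edgeR (adjusted p under 0.05), against 18.3% of all tested genes that fell, 18.9% that rose and 37.2% called in either direction. The share called among the 10 was thus near that of all genes. Their median log2 fold change was -0.11, against -0.01 over all genes tested. Groups did not overlap in 4 of the 10, NOTCH3, HEY1, DTX4 and MAML2, against 47.6% of all tested genes.

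**Figure D1:**
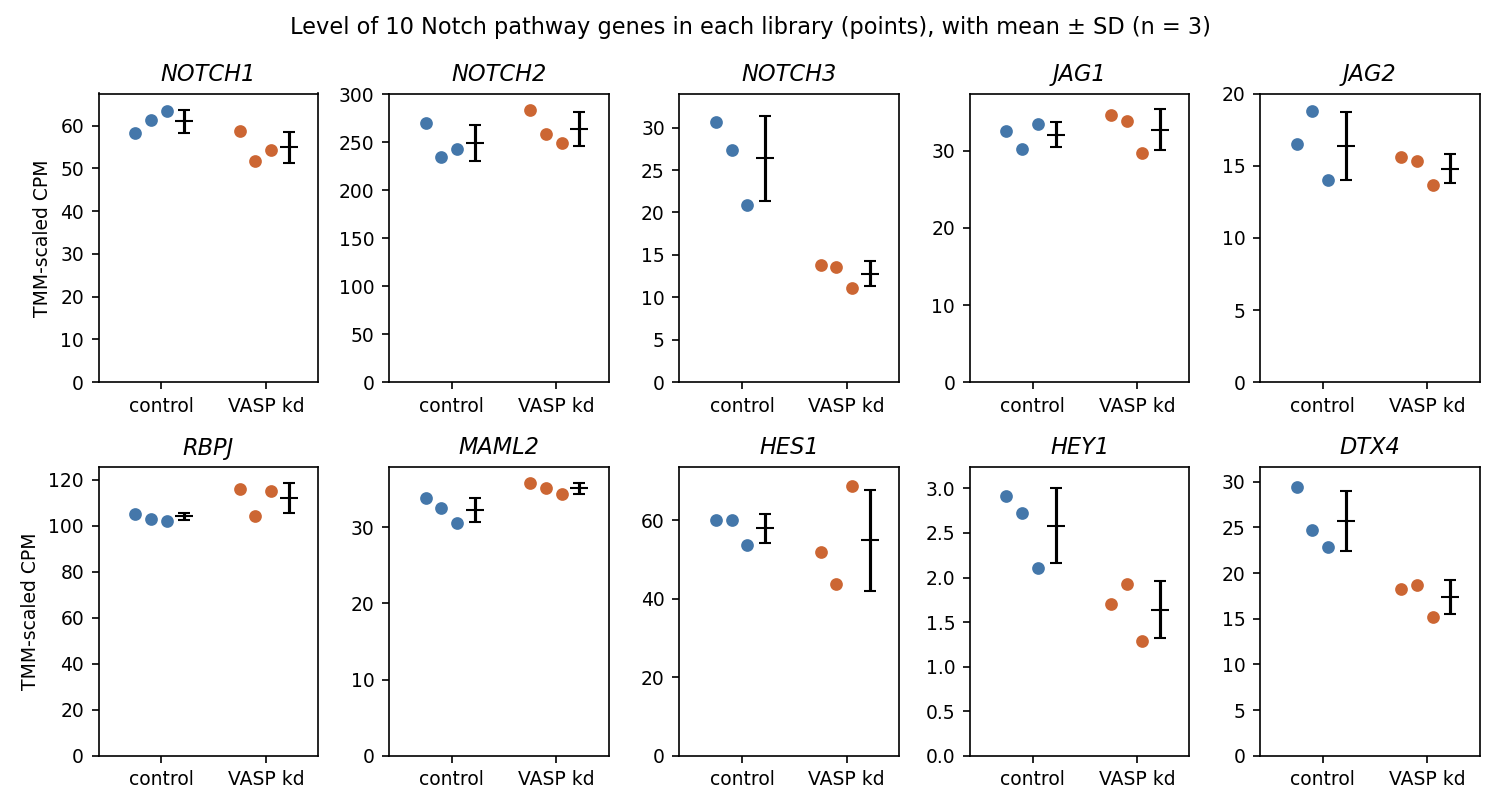
TMM-scaled CPM (y axes, each from 0) of the 10 genes in every library, controls in blue and VASP knockdown in orange, with mean ± SD over 3 libraries in black. NOTCH3, HEY1 and DTX4 are lower in all 3 knockdown libraries than in any control library, and HES1 has 1 knockdown library above and 2 below the controls.

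Among the receptors, NOTCH3 changed most. NOTCH3 (ENSG00000074181, GRCh38 chromosome 19, 15159038 to 15200995, minus strand), a receptor best known from smooth muscle and pericytes, was counted 896, 796 and 605 times in control and 422, 402 and 325 times after knockdown. Scaled, these were 30.7, 27.4 and 20.9 CPM in control and 13.8, 13.6 and 11.1 CPM in knockdown. The lowest control stood well above the highest knockdown library, although the controls spread more (coefficient of variation 18.9%) than the knockdown libraries (11.8%). The mean went from 26.4 ± 4.99 to 12.8 ± 1.51 CPM (SD, n = 3 each), a decrease of 2.06-fold (log2 fold change -1.04 with an SE of 0.15; edgeR, adjusted p = 0.000998). In size this change exceeded those of 98.9% of tested genes.

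NOTCH2 (ENSG00000134250, chromosome 1, 119911553 to 120100779, minus strand) was the receptor with the highest level. It read 270, 235 and 243 CPM in control and 284, 259 and 249 CPM in knockdown, with overlapping groups. The mean was 249 ± 18.8 CPM in control and 264 ± 18.2 CPM in knockdown (log2 fold change 0.08, 95% interval -0.04 to 0.20, adjusted p = 0.283). NOTCH2 shares sequence with the NOTCH2NL genes, for which NOTCH2NLC had 45 to 58 counts per library, and fragments that align to several places were not counted, so its level is uncertain over the shared exons.

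NOTCH1 (ENSG00000148400, chromosome 9, 136494433 to 136546048, minus strand) read 58.2, 61.2 and 63.5 CPM in control and 58.8, 51.6 and 54.2 CPM in knockdown. The highest knockdown library lay above the lowest control. The mean was 61.0 ± 2.66 CPM in control and 54.9 ± 3.61 CPM in knockdown, a 1.11-fold decrease (log2 fold change -0.15 with an SE of 0.06, adjusted p = 0.0374). The call was lost in 9 of 13 alternative analyses, among them DESeq2 (adjusted p = 0.0622) and the fit without knockdown library 2 (log2 fold change -0.10, adjusted p = 0.244), control library 2 (-0.15, 0.099), control library 3 (-0.12, 0.12) or knockdown library 3 (-0.14, 0.106).

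The receptor make-up was compared per library. On the scale of CPM per kilobase of merged exon (RPKM), NOTCH3 made up 14.6%, 14.3% and 10.9% of the summed level of the 3 receptors in control and 6.9%, 7.5% and 6.3% after knockdown. NOTCH2 made up 59.4% ± 1.66 in control and 67.0% ± 0.401 in knockdown (SD, n = 3 each). In both cases the groups did not overlap, with a two-sided exact permutation p = 0.1, the smallest that 3 against 3 libraries allow. Shares are parts of the same total, so the higher NOTCH2 share is not a result apart from the lower NOTCH3 share. The shares were not corrected for GC content. The share of NOTCH1 was 27.3% ± 2.49 in control and 26.1% ± 1.01 in knockdown (exact permutation p = 0.5).

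**Figure D2:**
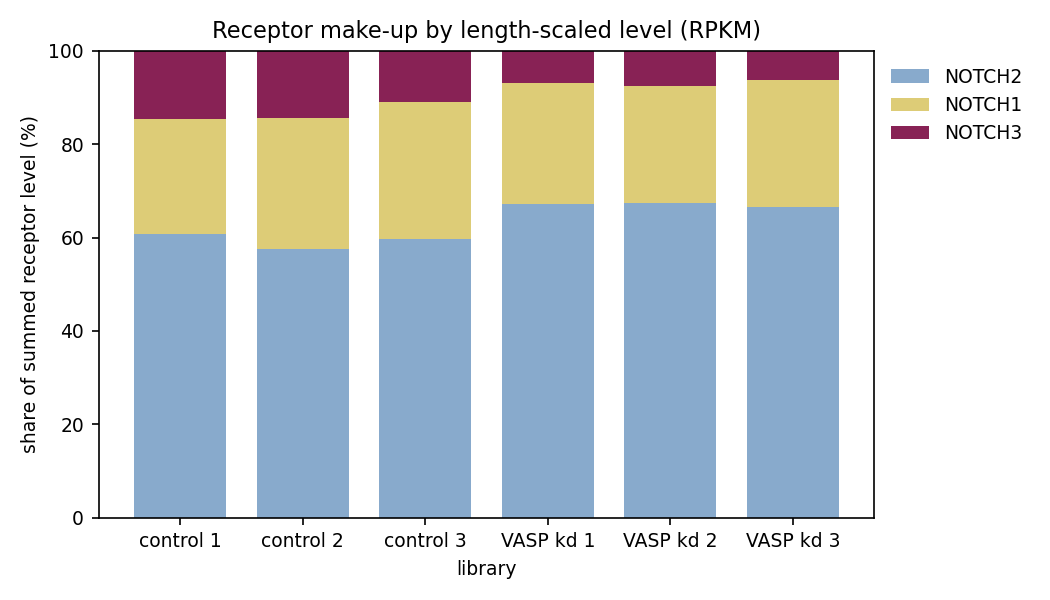
Share of the summed RPKM of the 3 receptors (y axis, percent) held by NOTCH2, NOTCH1 and NOTCH3 in each of the 6 libraries (x axis). The NOTCH3 segment spans 10.9% to 14.6% in control and 6.3% to 7.5% in VASP knockdown.

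The Jagged ligands did not pass the test. JAG1 (ENSG00000101384, chromosome 20, 10637684 to 10673999, minus strand) read 32.5, 30.2 and 33.5 CPM in control and 34.7, 33.8 and 29.7 CPM in knockdown, with the lowest and the highest value both in the knockdown group. Its log2 fold change was 0.03 (95% interval -0.11 to 0.17, adjusted p = 0.756), whose upper bound is a 1.12-fold increase. JAG2 (ENSG00000184916, chromosome 14, 105140982 to 105168824, minus strand) read 16.5, 18.8 and 14 CPM in control and 15.6, 15.3 and 13.7 CPM in knockdown. The control libraries of JAG2 bracketed 2 of the 3 knockdown libraries (log2 fold change -0.15, 95% interval -0.33 to 0.04, adjusted p = 0.219). Without control library 3, its lowest control, the log2 fold change of JAG2 was -0.25 with an adjusted p of 0.0211. Of the merged exons, 3.29% in JAG1 and 7.33% in JAG2 overlap another symbol, and neither overlapping symbol had more than 3 counts in a library.

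The nuclear factors read slightly higher in knockdown without passing the test. RBPJ (ENSG00000168214, chromosome 4, 26163455 to 26435131, plus strand) read 105, 103 and 102 CPM in control, the tightest group among the 10 genes, and 116, 104 and 115 CPM in knockdown. Knockdown library 2 lay within the control range (log2 fold change 0.11, SE 0.05, adjusted p = 0.0925), and without it the log2 fold change was 0.17 with an adjusted p of 0.0197. MAML2 (ENSG00000184384, chromosome 11, 95976598 to 96343195, minus strand) read 33.8, 32.5 and 30.6 CPM in control and 35.8, 35.1 and 34.4 CPM in knockdown. Its groups did not overlap, but the difference was small (log2 fold change 0.12, 95% interval 0.00 to 0.24, adjusted p = 0.111).

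The target repressors HES1 and HEY1 differed in level and in their spread. HES1 (ENSG00000114315, chromosome 3, 194136148 to 194138732, plus strand), a basic helix-loop-helix repressor whose transcript is short-lived, read 60.1, 60.1 and 53.8 CPM in control and 52.0, 43.7 and 68.8 CPM in knockdown. Knockdown library 3 was the highest of all 6, and the other 2 knockdown libraries were the lowest. The means, 58 ± 3.67 and 54.9 ± 12.8 CPM, did not differ beyond this spread (log2 fold change -0.08, SE 0.19, adjusted p = 0.779), and the coefficient of variation was 6.32% in control and 23.3% in knockdown. Without knockdown library 3, HES1 had a log2 fold change of -0.27 with an adjusted p of 0.00385. Without knockdown library 2 the log2 fold change was 0.07.

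HEY1, a related repressor on chromosome 8 (ENSG00000164683), was the member with the lowest level. It had 85, 79 and 61 counts in control and 52, 57 and 38 in knockdown, or 2.91, 2.72 and 2.11 CPM against 1.70, 1.93 and 1.29 CPM. The groups did not overlap, though control library 3 and knockdown library 2 lay close. HEY1 fell 1.57-fold (log2 fold change -0.65 with an SE of 0.18, adjusted p = 0.00568), with a 95% interval of -1.02 to -0.28 that its low counts keep wide. The call held without each library in turn, with adjusted p from 0.000982 to 0.0424, and was not met against a change of 1.2-fold as the null (adjusted p = 0.0775).

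DTX4 (ENSG00000110042, chromosome 11, 59171430 to 59208588, plus strand), whose family of ubiquitin ligases acts on Notch receptors and their trafficking, had the smallest p among the 10. It had 857, 717 and 663 counts in control and 557, 552 and 447 in knockdown, or 29.4, 24.7 and 22.9 CPM against 18.2, 18.7 and 15.2 CPM. All 3 knockdown libraries were below the lowest control. DTX4 went from 25.7 ± 3.33 to 17.4 ± 1.86 CPM, a 1.48-fold decrease (log2 fold change -0.56 with an SE of 0.09, adjusted p = 0.000117). The genes whose log2 CPM followed DTX4 most closely over the 6 libraries were EPAS1 (Pearson r 0.998), CD99L2 (0.998) and B4GALT1 (0.998), of 12338 genes compared. With 6 libraries in 2 groups such values are common, and 448 genes had an r above 0.95.

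The same library was often the lowest, or the highest, of its group across members. How often this held over all tested genes was not computed. Control library 3 was the lowest control for 7 of the 10 genes, NOTCH3, JAG2, HES1, HEY1, DTX4, MAML2 and RBPJ. Knockdown library 3 was the lowest knockdown library for 7, NOTCH2, NOTCH3, JAG1, JAG2, HEY1, DTX4 and MAML2. Control library 1 was the highest control for 7 of the 10, and knockdown library 1 the highest knockdown library for 7. In bulk RNA a lower level in every cell and a loss in some cells cannot be told apart.

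Fold change followed GC content in these libraries, and this touches several members. Over the tested genes with a GC value, the median log2 fold change was 0.18 in the decile lowest in GC, at 38.5% or less, and -0.23 in the highest, at 61.1% or more. NOTCH1 (62.9% GC), NOTCH3 (63.1%) and JAG2 (64.0%) lie in the high decile and RBPJ (38.0%) in the low one. With offsets that remove the trend in GC content and length, NOTCH3 remained down (log2 fold change -0.84, SE 0.12, adjusted p = 0.000461), as did DTX4 (-0.49, SE 0.09, 0.000561) and HEY1 (-0.64, SE 0.18, 0.00987). NOTCH1 turned to 0.05 (adjusted p = 0.532), JAG2 to 0.07 (0.524) and RBPJ to -0.01 (0.899). NOTCH2 passed as higher (log2 fold change 0.14, SE 0.05, adjusted p = 0.0386). The tally with offsets was 3 down and 1 up of 10, beside 12.2% down, 17.5% up and 29.7% called over all genes in that fit, and the median of the 10 was 0.02.

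**Figure D3:**
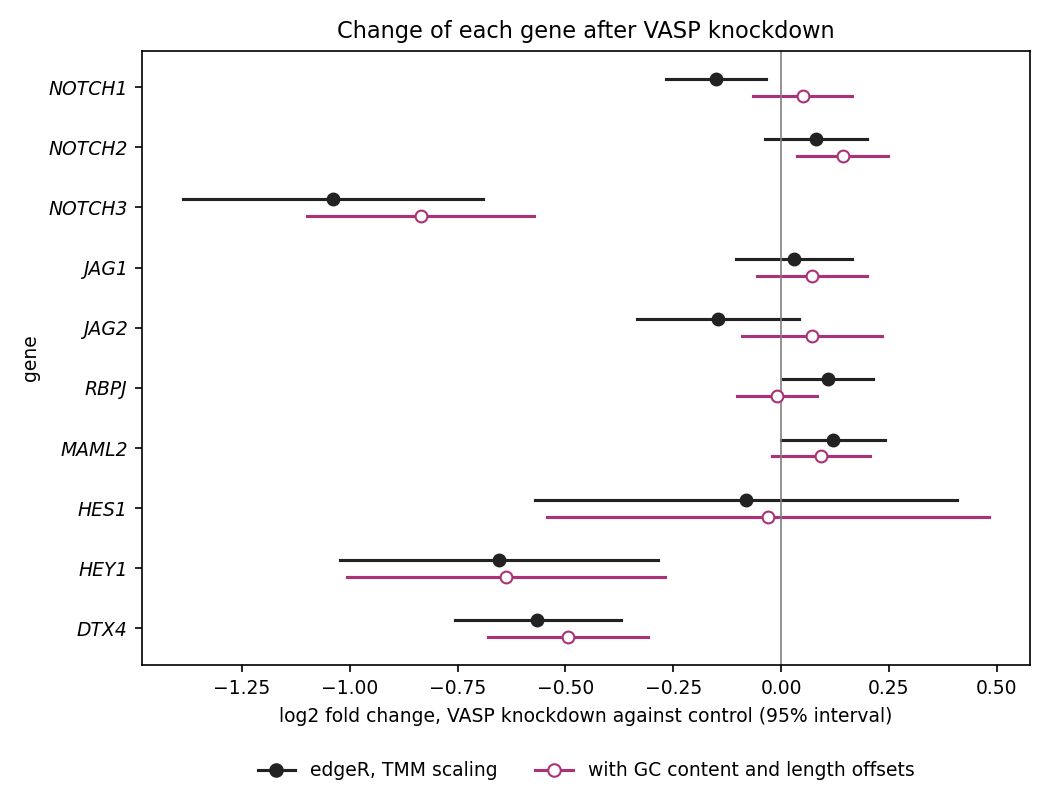
Log2 fold change of each gene (x axis) with its 95% interval, from the fit with TMM scaling (filled) and from the fit with GC content and length offsets (open). NOTCH3, HEY1 and DTX4 lie below 0 in both fits, while NOTCH1 moves from -0.15 to 0.05.

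**Figure D4:**
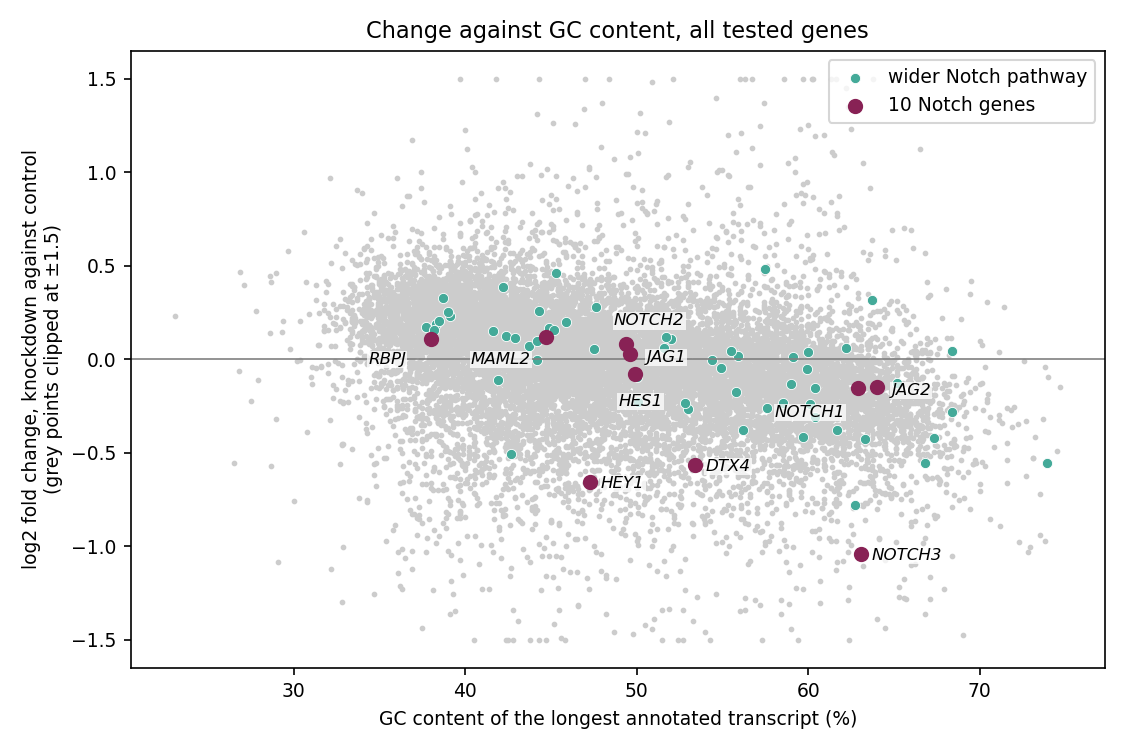
Log2 fold change (y axis) against GC content of the longest transcript (x axis, percent) for all tested genes in grey, the wider Notch pathway in green and the 10 genes in dark red. The grey cloud slopes from a median of 0.18 in the lowest GC decile to -0.23 in the highest. NOTCH3 at 63.1% GC lies far below its neighbours and NOTCH1 at 62.9% lies among them.

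Ranked by RPKM, which compares levels between genes, the control order was HES1 (28.2 ± 1.78), NOTCH2 (12.5 ± 0.942), RBPJ (11.2 ± 0.158), NOTCH1 (5.73 ± 0.25), MAML2 (4.53 ± 0.223), DTX4 (3.99 ± 0.517), JAG1 (3.45 ± 0.18), NOTCH3 (2.80 ± 0.53), JAG2 (2.57 ± 0.369) and HEY1 (0.80 ± 0.13; SD, n = 3). The ranges of neighbours overlapped from MAML2 through JAG2 in this order, and not between the others. In knockdown NOTCH3 (1.36 ± 0.161) stood below JAG2 (2.32 ± 0.159), and DTX4 (2.7 ± 0.29) below JAG1 (3.52 ± 0.286), in both cases without overlap of the libraries. Merged exons can be longer than the transcript in use, so RPKM can understate a gene.

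Beyond the 10, 67 further pathway genes were listed by role, of which 58 were tested. In these, 15 rose and 18 fell, 56.9% called against 37.2% of all genes (18.9% up, 18.3% down), with a median log2 fold change of 0.03. Low counts limit precision, and neither the list nor its roles were matched to all genes in level. Whether the higher share called goes with level was not tested. With the GC content and length offsets 18 were up and 8 down (median 0.06). Over all genes in that fit 17.5% were up, 12.2% down and 29.7% called (median 0.03). Both directions thus had fewer calls over all genes than without the offsets. In the pathway list up calls went from 15 to 18 and down calls from 18 to 8. Of the calls over all genes, 50.9% were up without the offsets and 58.9% with them. Of the 9 that were not tested, DLL1, DLK1, DTX1 and HES5 had no count in any library, where 3 counts are worth 0.0978 to 0.104 CPM. NOTCH4 had 1 count over all libraries, and DLL3, MFNG, NEURL1 and TLE4 had at most 14 in a library. Among other ligands, DLL4 (1.19 ± 0.085 CPM in control, 0.892 ± 0.0674 CPM in knockdown, adjusted p = 0.126) and DLK2 (28 CPM in control, 28.7 CPM in knockdown, adjusted p = 0.705) did not pass, and both are named after their values were seen. With the offsets DLK2 passed as higher (adjusted p = 0.0259).

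**Figure D5:**
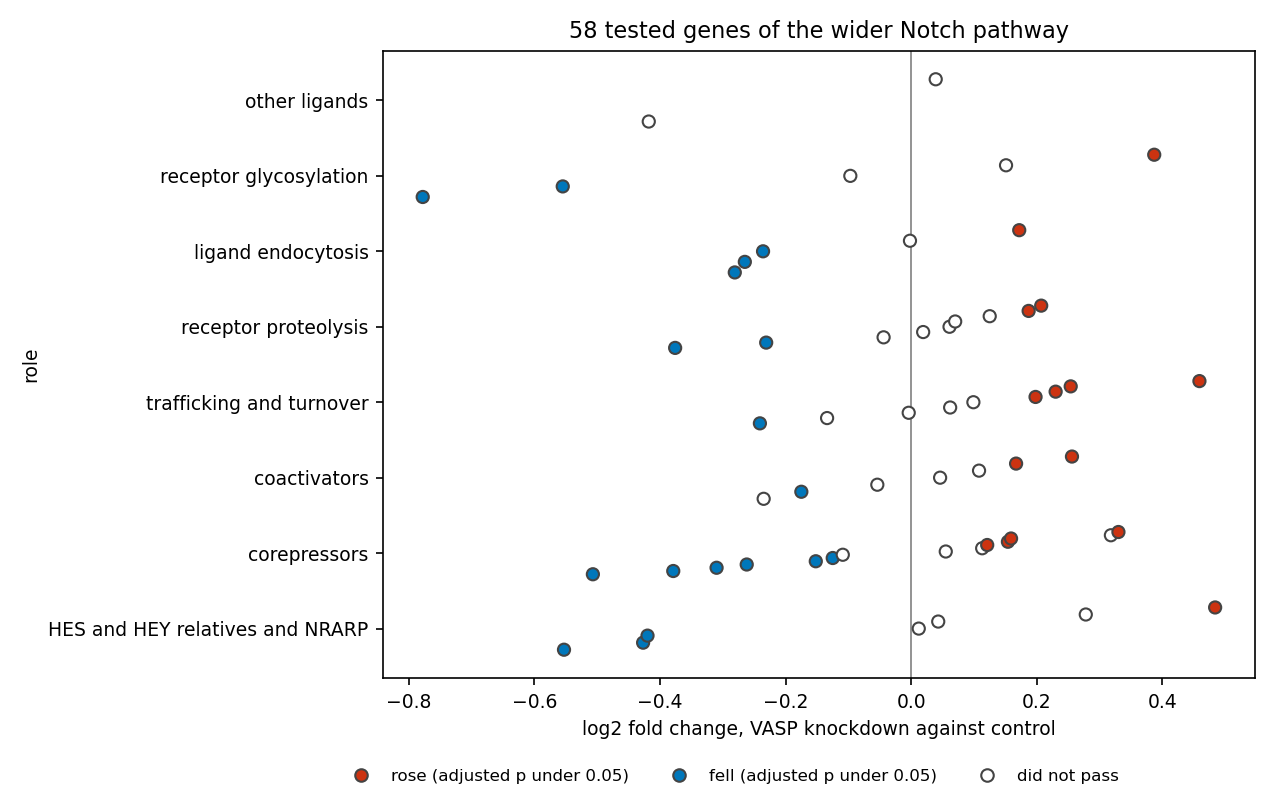
Log2 fold change (x axis) of the 58 tested genes of the wider pathway by role (y axis), filled red where a gene rose, blue where it fell and open where it did not pass. Both directions occur in every role with a called gene, from LFNG at -0.78 to HES2 at 0.48.

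Of 5 tested enzymes that glycosylate Notch receptors, 2 fell and 1 rose, beside 18.3% and 18.9% of all genes. Of the Fringe glycosyltransferases, which add N-acetylglucosamine to O-fucose on the receptor and alter its response to ligand classes, RFNG and LFNG fell while MFNG was too low to test: RFNG went from 35.8 ± 2.74 to 24.3 ± 0.384 CPM (1.47-fold at an adjusted p of 5.11e-07) and LFNG from 1.92 ± 0.293 to 1.11 ± 0.111 CPM (1.72-fold, adjusted p = 0.00246). EOGT, which adds N-acetylglucosamine directly, rose 1.31-fold (adjusted p = 0.000163). These 3 calls held with the offsets, at log2 fold changes of -0.28 for RFNG, -0.58 for LFNG and 0.31 for EOGT. Of 5 tested genes of ligand endocytosis 3 fell and 1 rose, 80% called against 37.2% of all genes. The adaptor EPN1 fell 1.2-fold, the ubiquitin ligases NEURL1B and MIB2 fell 1.18-fold and 1.22-fold, and MIB1, which ubiquitinates ligands, rose 1.13-fold. With the offsets EPN1 alone remained called in that role (log2 fold change -0.18), and MIB2 turned to 0.04.

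Of 9 proteases and secretase subunits 2 rose and 2 fell, 44.4% called and thus near the 37.2% of all genes. FURIN, which cleaves the receptor precursor, went from 115 ± 2.6 to 88.2 ± 1.62 CPM (1.30-fold lower at an adjusted p of 1.63e-06), and the gamma-secretase subunit NCSTN fell 1.17-fold (adjusted p = 0.00109). The sheddases ADAM10 and ADAM17, which make the ligand-induced cut, rose 1.14-fold and 1.15-fold. With the offsets FURIN and NCSTN remained down, and ADAM10 (adjusted p = 0.167) and ADAM17 (0.149) did not pass. The secretase subunit APH1A passed as higher there (log2 fold change 0.12, adjusted p = 0.0402, against 0.788 without offsets). The role thus had 2 down and 1 up of 9 with the offsets, beside 12.2% down and 17.5% up over all genes in that fit. Of 9 tested genes of trafficking and turnover 4 rose and 1 fell, 55.6% called against 37.2% of all genes. With the offsets 5 were up and none down, beside 17.5% up and 12.2% down over all genes in that fit. CDK8 and its partner cyclin C (CCNC), which phosphorylate the intracellular domain, rose 1.37-fold (15.9 ± 1.04 to 21.8 ± 1.45 CPM, adjusted p = 3.64e-05) and 1.19-fold (adjusted p = 0.000854), and the ubiquitin ligase ITCH rose 1.17-fold (adjusted p = 0.000474). NUMBL, an endocytic adaptor, fell 1.18-fold and did not pass with the offsets (adjusted p = 0.225).

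Of 7 coactivators 42.9% were called, near the 37.2% of all genes. The genes that rose were the acetyltransferase KAT2B (1.19-fold) and SNW1 (1.12-fold), and CREBBP fell 1.13-fold, a decrease that did not pass with the offsets (adjusted p = 0.341). With the offsets 3 coactivators were up and none down, EP300 having joined KAT2B and SNW1 (adjusted p = 0.0259 against 0.19 without offsets). Over all genes in that fit 17.5% were up and 12.2% down. SNW1 lost its call without knockdown library 2 (adjusted p = 0.0579). Of 14 tested corepressors 6 fell and 4 rose, 71.4% called against 37.2% of all genes. With the offsets 3 were down and 5 up, beside 12.2% down and 17.5% up over all genes in that fit. CTBP2, a partner of RBPJ-bound repressor complexes, went from 85.2 ± 4.2 to 60.0 ± 0.303 CPM (1.42-fold lower at an adjusted p of 6.59e-08), and at 42.7% GC its log2 fold change was -0.51 without and -0.56 with the offsets. CTBP1 fell 1.24-fold (adjusted p = 0.0589 with the offsets), and the Groucho-type corepressors TLE3 and TLE1, which HES proteins recruit, fell 1.30-fold and 1.2-fold.

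Of 7 tested HES and HEY relatives with NRARP, 3 fell and 1 rose, 57.1% called against 37.2% of all genes. With the offsets 2 were up and none down, HES2 and HES6 (HES6 log2 fold change 0.36, adjusted p = 0.0273, against 0.823 without offsets). Over all genes in that fit 17.5% were up and 12.2% down. HES4 went from 9.02 ± 0.479 to 6.15 ± 0.0885 CPM (1.47-fold lower at an adjusted p of 6.94e-05), NRARP, a feedback inhibitor of Notch that is itself a target, fell 1.34-fold, HES7 fell 1.34-fold and HES2 rose 1.40-fold from 2.03 ± 0.396 CPM. At 73.9%, 67.3% and 63.3% GC, HES4, NRARP and HES7 lost the call with the offsets (adjusted p = 0.507, 0.481 and 0.18), whereas HEY1, at 47.3% GC, kept it. NRARP also lost it without control library 3 (adjusted p = 0.0505), HES7 without control library 2 (0.115), and HES2 without control library 1 (0.0628), control library 3 (0.101), knockdown library 1 (0.122) or knockdown library 2 (0.0543). MIB2 lost its call without control library 2 (adjusted p = 0.0858), CREBBP without knockdown library 2 (0.106), and MIB1 without control library 2 (0.141) or knockdown library 1 (0.0978).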

How the data were processed

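RNA-seq values of MDA-MB-231 cells were used from 3 control and 3 VASP knockdown libraries. The authors deposited whole-number fragment counts per gene symbol, not normalized. The counter, per the file headers, was featureCounts 1.6.4, run on read pairs over exons of GENCODE release 32 (GRCh38) without strand or multi-mapping options. Trim Galore 0.6.4, STAR 2.7.1a and hg38 are named in the submitters' processing notes. Control columns carry the name of 1 control sample and a further number, so they are controls by group only and are numbered in table order as names. Merged exon lengths are a deposited column in the same table, per the file headers.

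Genes were filtered with filterByExpr, scaled to CPM by TMM, and compared by edgeR 4.0.16 in R 4.3.3 with its quasi-likelihood test, two-sided (group as the sole term, robust fit), with Benjamini-Hochberg adjustment over all 16633 genes and a threshold of 0.05. The fit was tested on simulated data. SE is the log2 fold change divided by the square root of F, and intervals use the total degrees of freedom of the test. GC content came from the longest GENCODE 29 transcript, matched through current or older symbols for 98.4% of tested genes; offsets were splines with 5 degrees of freedom in GC content and log2 length per library. Alternatives were DESeq2 1.42.0, RLE or no scaling, other filters, the offsets, a null of 1.2-fold, and each library left out. Members and lists were chosen with earlier results of these data known. Named genes are the 10 members, VASP, up to 4 called genes of smallest p per role, and the 3 genes most correlated with the member of smallest p. EP300, HES6 and APH1A were added after their values were seen.

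Between libraries of a group, chi-square over its degrees of freedom was 5.67 to 9.73, above sampling noise, so none was treated as a library deposited more than once. This does not show that they came from separate cultures. Totals were 28856610 to 30055503 counts per library. Depth limits precision for low genes such as HEY1.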

Additional observations from a re-analysis of the deposited data

How the results depend on the processing

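NOTCH3 and DTX4 kept direction and call in all 13 alternatives, with log2 fold changes of -1.18 to -0.84 and -0.64 to -0.46. HEY1 kept direction in all 13 and lost the call in 1. Members called ranged from 2 to 4 over the alternatives. Against a null of 1.2-fold, the stricter question, 2 of 10 members were called, both down, and 6 of 58 wider pathway genes (1 up, 5 down). Of all 16633 genes tested, 953 were called against that null (324 up, 629 down), and 6187 for any change. With the GC content and length offsets 1 member was up, 8 wider pathway genes were down, and NOTCH1 (0.05) and MIB2 (0.035) changed sign; of all genes 2866 rose and 2004 fell there, against 3148 and 3039. With 1 library left out in turn, 0 to 1 members were up, the 1 being RBPJ without knockdown library 2, and 3 to 4 were called. Over all genes those fits called from 4481 of 16966 (without control library 2) to 6399 of 16997 (without control library 3). With library totals alone 3 members were called, as with no low-count filter and with DESeq2, NOTCH1 being lost in each. In that order, calls over all genes were 6124 of 16633, 6102 of 34810 and 5205 of 14053. No scaling moved the median log2 fold change of all genes by more than 0.1. No paired analysis was possible because the control columns do not carry the replicate numbers of the labels. Depth limits low genes such as HEY1, with 38 to 85 counts, and those too low to test.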
